A study of Mus musculus with 12 samples.

Results

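The glucocorticoid receptor and a set of its response genes were followed in the livers of 12 adult male mice, 6 born to dams lacking uncoupling protein 1 (UCP1-KO dams) and 6 born to wild-type (WT) dams. The members were 10 genes chosen by symbol: the receptor gene Nr3c1, the hormone-activating enzyme gene Hsd11b1, and the response genes Fkbp5, Tsc22d3, Zbtb16, Sgk1, Dusp1, Tat, Tdo2 and Errfi1. All 10 had exactly 1 probe set among the 22206 probe sets tested, which together cover 19505 gene symbols. Dams of either genotype were bred to heterozygous sires, and every offspring is labelled heterozygous for the Ucp1 mutation, on the C57BL/6J background. The mice were 4 to 5 months old, were housed at 23 °C and ate standard chow without restriction. Under this breeding the mutant allele came from the dam in one group and from the sire in the other, so dam genotype and the parent that passed on the allele cannot be told apart. Each mouse contributed 1 array, numbered 7 to 12 for offspring of UCP1-KO dams and 1 to 6 for offspring of WT dams. The genotype compared is that of the dam, whose own tissue was not on the arrays, so no probe set checks the group labels. Litters are not named in the labels, and the p-values therefore take each mouse as independent although brothers may be among them.

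Glucocorticoids (corticosterone in the mouse) bind the receptor encoded by Nr3c1, which is held in the cytoplasm by heat shock proteins and, once occupied, moves to the nucleus and binds DNA as a dimer. Inside hepatocytes the enzyme encoded by Hsd11b1 regenerates active hormone from its inert keto form. The liver answers with enzymes of amino acid breakdown and glucose production, with phosphatases and kinases that reset signalling, and with Fkbp5, a cochaperone that lowers the affinity of the receptor for its hormone. Hormone release follows the time of day and rises with stress and fasting. The labels give neither the hour of sampling nor the feeding state, and hormone levels were not analysed here.

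The dimeric receptor prefers a palindrome, the hexamer AGAACA followed after 3 bases of any kind by its reverse complement TGTTCT. The 250 bases upstream of annotated transcription starts (RefSeq, build GRCm38.p6) were searched on both strands for this consensus, for a relaxed core (GNACA, any 3 bases, TGTNC), for the lone hexamer AGAACA, for the cAMP response element TGACGTCA and for the E-box CACGTG bound by clock factors. Windows were found for 8 of the 10 members, 16 windows in all. The consensus was present in 3 of 32851 windows of the same length across all genes (0.00913%), and 1 of those 3 belongs to Sgk1, where its first base lies at -189 from the start. The relaxed core occurred in 0.387% of all windows, the hexamer in 16.1%, the cAMP response element in 1.55% and the E-box in 6.02%. The consensus contains the relaxed core and 2 hexamers, so these hits overlap in Sgk1. An E-box further upstream in the same window shares its last bases with another hexamer. Upstream sequences of 4 members are shown 5′ to 3′ on the strand of the gene. Sgk1 and Tsc22d3 are shown because their signals moved together between livers, Dusp1 for its cAMP response element, and Fkbp5 because its groups did not overlap. Capitals mark every match to the motifs searched. The windows lie at chr10:21993640-21993889 on the plus strand for Sgk1, and on the minus strand at chrX:140600523-140600772 for Tsc22d3, chr17:26508473-26508722 for Dusp1 and chr17:28486150-28486399 for Fkbp5. For Sgk1 and Tsc22d3, which have 6 and 3 annotated starts, the window with the most hexamer matches is shown.
Sgk1: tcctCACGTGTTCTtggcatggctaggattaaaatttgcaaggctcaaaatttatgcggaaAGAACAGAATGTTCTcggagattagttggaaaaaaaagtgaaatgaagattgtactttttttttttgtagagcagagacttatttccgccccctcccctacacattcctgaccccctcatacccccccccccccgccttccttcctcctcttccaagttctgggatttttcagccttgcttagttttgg
Tsc22d3: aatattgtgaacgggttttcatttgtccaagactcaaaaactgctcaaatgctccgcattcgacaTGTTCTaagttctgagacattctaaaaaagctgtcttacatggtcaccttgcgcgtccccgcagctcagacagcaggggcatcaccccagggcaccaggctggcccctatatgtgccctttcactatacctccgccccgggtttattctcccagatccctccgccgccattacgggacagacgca
Dusp1: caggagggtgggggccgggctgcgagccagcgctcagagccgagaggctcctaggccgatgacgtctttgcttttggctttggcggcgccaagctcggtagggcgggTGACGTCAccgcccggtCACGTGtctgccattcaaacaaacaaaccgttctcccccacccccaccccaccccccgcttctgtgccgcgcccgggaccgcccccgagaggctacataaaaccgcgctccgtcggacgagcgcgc
Fkbp5: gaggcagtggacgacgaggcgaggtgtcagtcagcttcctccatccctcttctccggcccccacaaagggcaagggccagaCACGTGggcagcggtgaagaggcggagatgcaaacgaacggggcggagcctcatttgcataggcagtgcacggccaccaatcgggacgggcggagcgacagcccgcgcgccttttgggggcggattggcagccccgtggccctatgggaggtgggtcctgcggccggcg
The Tsc22d3 window holds 1 hexamer and no paired element. In Dusp1 the cAMP response element begins at -143 and an E-box at -126. Errfi1, whose sequence is not shown, also has a cAMP response element, at -51 from an annotated start. Fkbp5 has 1 E-box and no hexamer in this window. A match is a description of the letters only. The arrays do not measure binding.

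Between the groups, none of the 10 genes passed the test (0 higher and 0 lower, limma, Benjamini-Hochberg adjusted p = 0.212 to 0.989), and 1, Fkbp5, had an unadjusted p under 0.05. Across all probe sets 8 passed (0.036%, split into 0.0045% higher and 0.0315% lower), a count that ran between 1 and 112 when single arrays were left out, and 13.1% had an unadjusted p under 0.05. In the members that share was 10%, close to that background. Differences are given throughout as UCP1-KO-dam minus WT-dam group means on the log2 scale. Their median over the members was 0.08, against 0.03 over all probe sets. Of the members 8 lay above 0 and 2 below, against 56.8% of all probe sets above 0. All 10 were brighter on average than the typical negative control, whose median over control probe sets lay at 5.96 to 6.36 (log2 signal) on arrays of offspring of UCP1-KO dams and at 6.14 to 6.62 on those of WT dams. Values given for a gene are log2 signals of its probe set as normalized by the authors, and the levels of single genes are not set against each other.

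**Figure D1:**
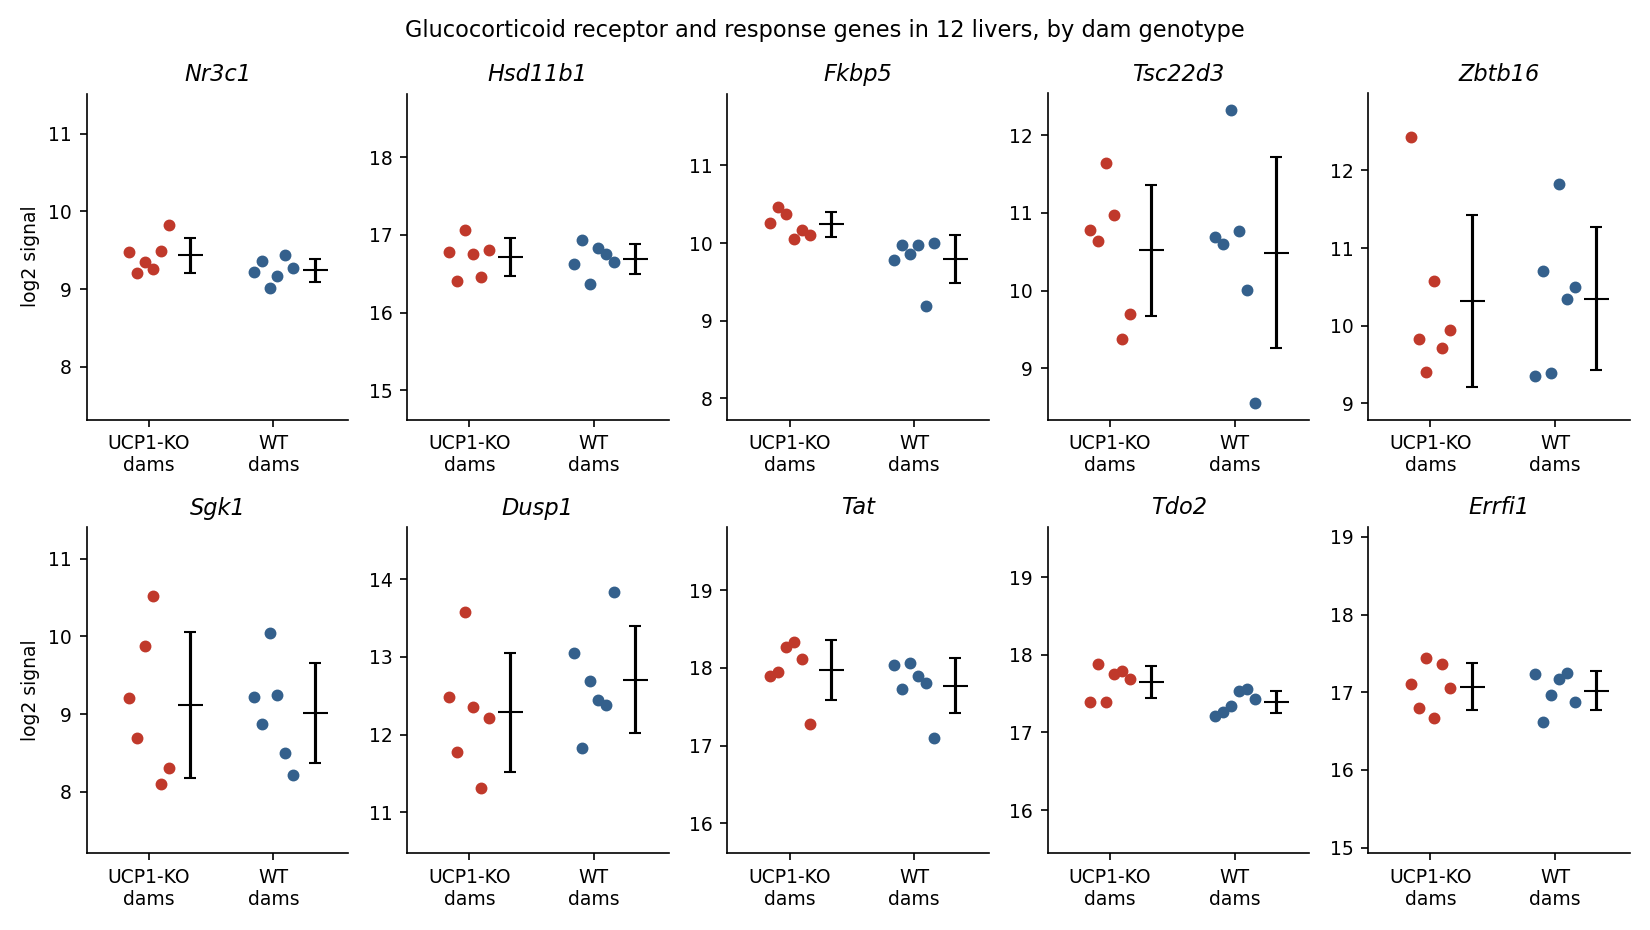
Each panel plots the log2 signal of 1 gene in 12 livers, offspring of UCP1-KO dams in red at the left and of WT dams in blue at the right, with the group mean and SD (n = 6) as black bars. All panels span the same log2 height. The 6 Fkbp5 values of offspring of UCP1-KO dams lie at 10.06 or higher and the 6 of WT dams at 10.00 or lower, while Tsc22d3, Zbtb16, Sgk1 and Dusp1 spread widely in both groups.

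Fkbp5 was the one member whose groups did not overlap. Its lowest, median and highest signals were 10.06, 10.22 and 10.47 in offspring of UCP1-KO dams, against 9.19, 9.91 and 10.00 in offspring of WT dams. The gap between the groups was narrow, and WT-dam array 5, at 9.19, lay well below the other 5 of its group, which held between 9.79 and 10.00. The means were 10.24 ± 0.16 in offspring of UCP1-KO dams and 9.80 ± 0.31 in offspring of WT dams (SD, n = 6 each), 0.44 apart on the log2 scale (95% interval 0.13 to 0.76), or 1.36-fold. It did not pass over all probe sets (limma adjusted p = 0.212), and the exact two-sided permutation p of this single gene was 0.00216, the smallest that 6 against 6 arrays can give. Over all probe sets the groups did not overlap in 1.05%, made up of 0.626% with the UCP1-KO-dam group above and 0.423% with it below. Without array 5 the difference was 0.32 (limma adjusted p = 0.342). With an index of clock gene phase as a covariate it was 0.52 (adjusted p = 0.196), though that index may itself take up part of the dam genotype difference.

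Nr3c1, the receptor gene itself, varied little. Its lowest, median and highest signals were 9.21, 9.42 and 9.82 in offspring of UCP1-KO dams, against 9.01, 9.24 and 9.44 in offspring of WT dams. The groups overlapped, with 3 of the 6 UCP1-KO-dam arrays above the highest WT-dam array. The difference of 0.19, with 95% limits of -0.09 and 0.47 (limma adjusted p = 0.563), was within the spread between mice. The whole range over 12 livers was 1.75-fold. Hsd11b1 had 16.40, 16.77 and 17.07 in offspring of UCP1-KO dams, against 16.37, 16.70 and 16.93 in offspring of WT dams. These ranges nearly coincide. The group means differed by 0.02 on the log2 scale (limma adjusted p = 0.976), and the 95% interval runs from 0.824-fold to 1.24-fold.

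Tat and Tdo2, the classical hormone-induced enzymes that open the breakdown of tyrosine and of tryptophan in hepatocytes, had slightly higher group means in offspring of UCP1-KO dams. Tdo2 read 17.39, 17.72 and 17.88 (lowest, median, highest) in offspring of UCP1-KO dams, against 17.21, 17.39 and 17.56 in offspring of WT dams. The groups overlapped, with 4 of 6 UCP1-KO-dam arrays above every WT-dam array and all 6 above the WT-dam median. The group means differed by 0.26 on the log2 scale (95% interval -0.01 to 0.53, limma adjusted p = 0.401). Tat read 17.28, 18.03 and 18.34 in offspring of UCP1-KO dams, against 17.09, 17.85 and 18.07 in offspring of WT dams. In each group 1 liver was much lower than the other 5, UCP1-KO-dam array 12 and WT-dam array 6. For Tat the group means differed by 0.20 (95% interval -0.20 to 0.60, limma adjusted p = 0.693). Without array 6 the difference was 0.07, and without array 12 it was 0.34.

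Most other enzymes of these pathways had lower group means in offspring of UCP1-KO dams, without a call. Of 13 measured genes of tryptophan and tyrosine breakdown, Tat and Tdo2 not among them, 9 lay below 0 and 4 above, with a median log2 difference of -0.17 against 0.03 over all probe sets, and 0 passed. At an unadjusted p under 0.05 there were 3 lower and 0 higher, beside 6% lower and 7.08% higher over all probe sets. Ido2, a second enzyme that opens the tryptophan ring, had 11.34 ± 0.40 in offspring of UCP1-KO dams and 12.13 ± 0.27 in offspring of WT dams (SD, n = 6 each). The difference, -0.79 on the log2 scale with 95% limits of -1.17 and -0.41, was nearest to the threshold among the listed pathway genes (limma adjusted p = 0.0944). Haao, which makes quinolinic acid, had a log2 difference of -0.36, Qprt, which passes it on to NAD synthesis, -0.35, and Fah, the last enzyme of tyrosine breakdown, -0.29. None of these 3 passed (limma adjusted p = 0.340 to 0.419).

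**Figure D2:**
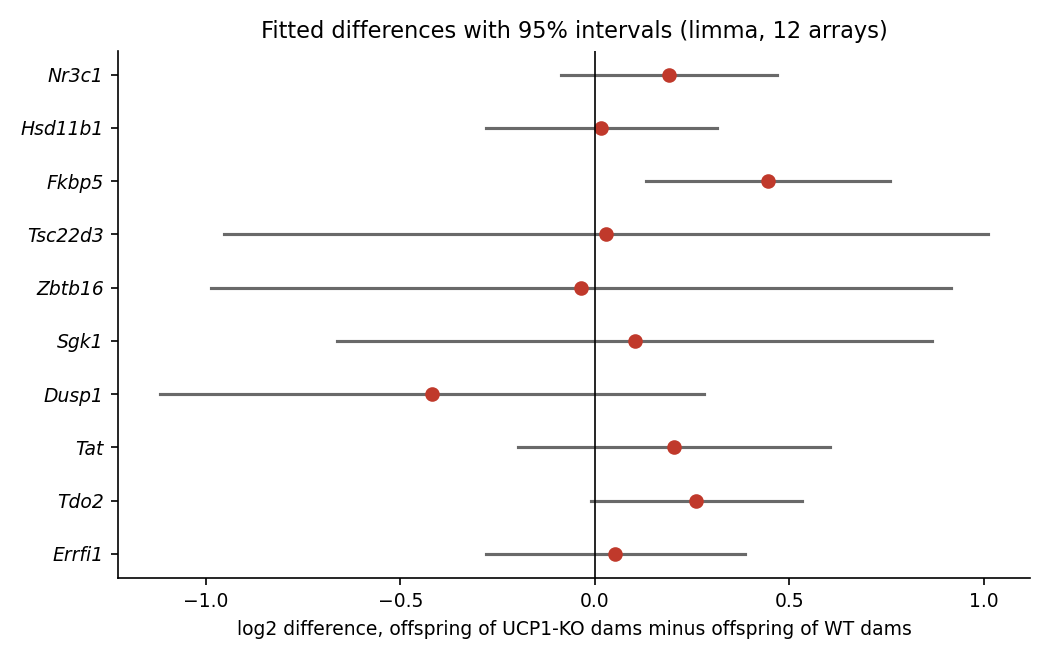
Points give the fitted log2 difference of each gene, UCP1-KO-dam group minus WT-dam group, and bars its 95% interval from limma on 12 arrays. Only the interval of Fkbp5 lies wholly above 0, before any adjustment for the number of probe sets, and those of Tsc22d3, Zbtb16, Sgk1 and Dusp1 are the widest.

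The remaining members regulate transcription and signalling, and most of them varied widely within both groups. Tsc22d3 encodes GILZ, a leucine zipper protein that carries part of the anti-inflammatory action of the hormone. It read 9.37, 10.71 and 11.64 (lowest, median, highest) in offspring of UCP1-KO dams, against 8.55, 10.64 and 12.33 in offspring of WT dams. The range of the first group lay inside that of the second, and the extremes of the whole set, WT-dam arrays 6 and 3, were 13.8-fold apart. The log2 difference was 0.03 with a 95% interval of -0.95 to 1.01 (limma adjusted p = 0.989). Sgk1, a kinase gene that controls ion transport and insulin-related signalling, read 8.10, 8.95 and 10.52 in offspring of UCP1-KO dams, against 8.21, 9.05 and 10.05 in offspring of WT dams. Its groups overlapped almost wholly (log2 difference 0.10, 95% interval -0.66 to 0.87, limma adjusted p = 0.941).

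Zbtb16, a zinc finger transcriptional repressor known as PLZF, read 9.41, 9.88 and 12.43 in offspring of UCP1-KO dams, against 9.35, 10.42 and 11.82 in offspring of WT dams. A single liver was far above the rest in each group, UCP1-KO-dam array 7 and WT-dam array 4. The group means differed by -0.04, with 95% limits of -0.99 and 0.92 (limma adjusted p = 0.986). Dusp1, a phosphatase gene that switches off MAP kinases and responds to growth factors and stress as well as to the hormone, read 11.31, 12.28 and 13.58 in offspring of UCP1-KO dams, against 11.82, 12.57 and 13.84 in offspring of WT dams. The groups overlapped, with 2 UCP1-KO-dam livers below every WT-dam liver. The group means differed by -0.42, with 95% limits of -1.12 and 0.28 (limma adjusted p = 0.627). Leaving out UCP1-KO-dam array 9 gave -0.68, leaving out array 11 of that group -0.22, and leaving out array 6 of the WT-dam group -0.19. Errfi1, an inhibitor of the EGF receptor, read 16.66, 17.08 and 17.44 in offspring of UCP1-KO dams, against 16.62, 17.06 and 17.25 in offspring of WT dams. Here too the groups overlapped, with 2 UCP1-KO-dam livers above every WT-dam liver (log2 difference 0.05, 95% interval -0.28 to 0.39, limma adjusted p = 0.926).

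The 10 genes differed widely in how much they varied between mice. Among 10971 probe sets brighter than the negative controls, the median SD within dam groups was 0.27 on the log2 scale. Tsc22d3 had an SD of 1.05, Zbtb16 1.02, Sgk1 0.81 and Dusp1 0.73. At least 98.6% of those probe sets varied less than each of these 4 genes. The receptor gene Nr3c1, with 0.19, and Tdo2, with 0.18, varied more than only 15.7% and 12.2% of them. Fkbp5, with 0.25, lay near the middle, above 39.2% of them. These percentiles describe the 12 livers and are no test. They do not allow for brightness, and how spread depends on it was not tested.

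**Figure D3:**
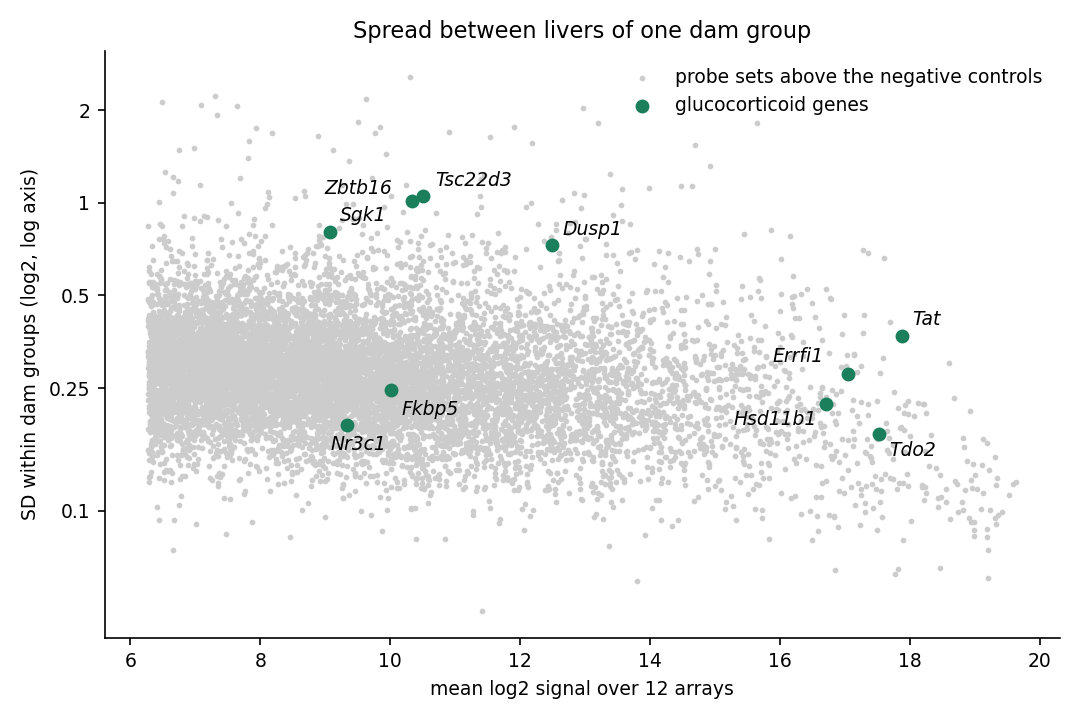
Grey points are the 10971 probe sets above the negative controls, by mean log2 signal over 12 arrays and by their SD within dam groups on a log axis. Green points mark the 10 glucocorticoid genes. Tsc22d3, Zbtb16, Sgk1 and Dusp1 lie along the upper edge with SDs of 0.73 to 1.05, and Nr3c1 and Tdo2 low in the cloud with 0.19 and 0.18.

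The variable genes were then compared liver by liver, after the mean of each dam group had been subtracted. Tsc22d3 and Sgk1 were high and low in the same mice. Over 12 livers Pearson's r was 0.84 (permutation p = 0.00069, adjusted p = 0.031 over the 45 pairs of members) and Spearman's rho 0.94 (permutation p = 5e-05, adjusted p = 0.00225). Within the groups r was 0.83 among 6 offspring of UCP1-KO dams (exact p = 0.05) and 0.96 among 6 offspring of WT dams (exact p = 0.00139). Without the arrays farthest from the median of Tsc22d3, WT-dam arrays 3 and 6, r was again 0.84, with an adjusted p of 0.488 over the remaining 10 arrays. Leaving out single arrays kept r between 0.80 and 0.94. The adjusted p of Pearson's r exceeded 0.05 without arrays 3 (0.099), 5 (0.101), 6 (0.0796), 7 (0.0679) or 12 (0.0607). This was the only pair of 45 that passed, and 6 had an unadjusted p under 0.05.

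The 5 other pairs with an unadjusted p under 0.05 joined Tat or Nr3c1 with Tsc22d3 or Sgk1, or with each other. Tat had positive coefficients with Tsc22d3 (r = 0.72, rho = 0.70, permutation p = 0.0154 and 0.02) and with Sgk1 (r = 0.69, rho = 0.72, permutation p = 0.017 and 0.0198), and neither pair passed over the 45 (adjusted p = 0.255 for Pearson's r, 0.18 for Spearman's rho). Without the 2 arrays farthest from the median, these r were 0.53 and 0.62. Nr3c1 had negative coefficients with these 3 genes, r = -0.58 with Tsc22d3, -0.64 with Sgk1 and -0.64 with Tat (permutation p = 0.0403, 0.042 and 0.0408, adjusted p = 0.315 each). The matching rho were -0.72, -0.72 and -0.65 (adjusted p = 0.18, 0.18 and 0.272). Without arrays 3 and 12, the farthest for Nr3c1, these r were -0.32, -0.45 and -0.16, so all 3 were weaker, that with Tat most of all. Fkbp5 had r = 0.14 with Tsc22d3 and 0.08 with Sgk1 (rho = 0.05 each, permutation p of at least 0.617, adjusted p = 0.947 or more). Zbtb16 had r = -0.11 with Tsc22d3 (rho = -0.11, adjusted p = 0.947). Dusp1 had r = 0.06 with Tsc22d3 (rho = 0.36, adjusted p = 0.947 and 0.804) and 0.72 without arrays 3 and 6. Within the groups it was 0.82 among offspring of UCP1-KO dams (exact p = 0.0389) and -0.51 among offspring of WT dams (exact p = 0.279), a difference that was not tested. These within-group p-values are unadjusted, and other pairs also fell under 0.05 within a group. Hsd11b1 with Dusp1, for example, had r = 0.93 among offspring of UCP1-KO dams (exact p = 0.0139).

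**Figure D4:**
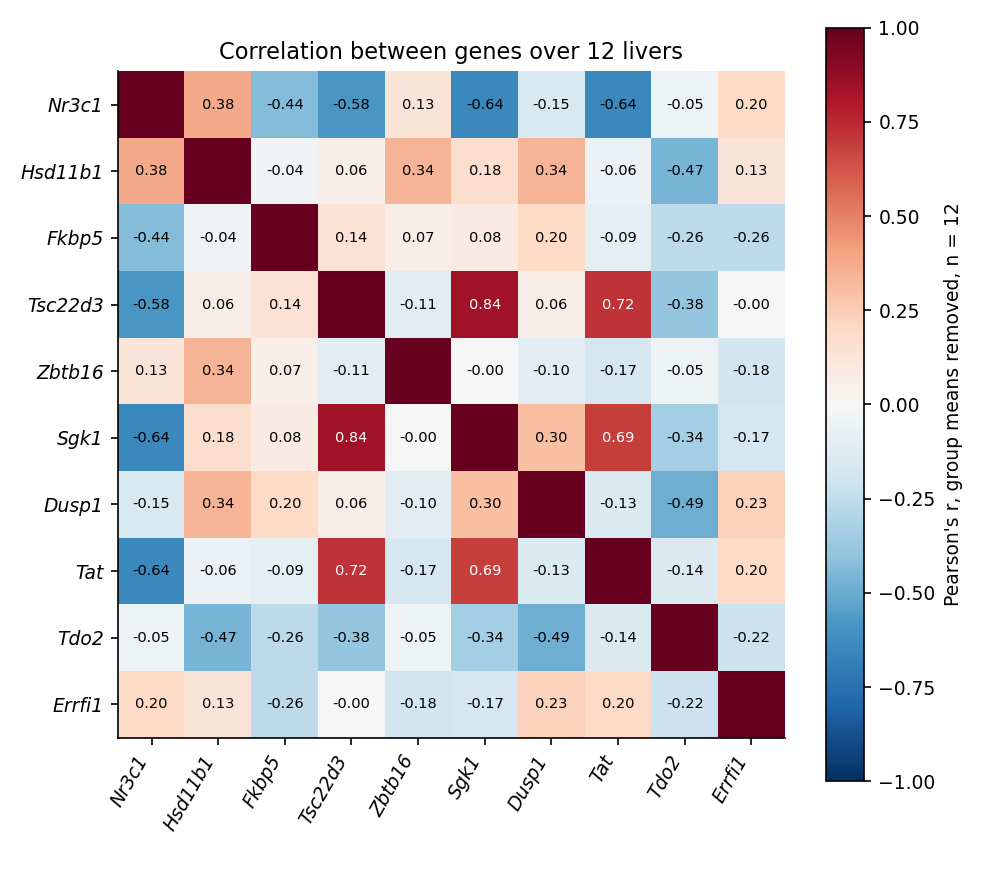
The grid gives Pearson's r between each pair of the 10 genes over 12 livers after subtraction of the dam group means, red for positive and blue for negative. Tsc22d3, Sgk1 and Tat form a block with r of 0.69 to 0.84 and all have negative r with Nr3c1, while Fkbp5 and Zbtb16 are pale against these 3 genes.

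Tsc22d3 ran opposite to the mean of a list of immediate early genes. These are transcription factor and signalling genes that cells switch on within minutes of a stimulus. The mean signal of 12 such genes correlated with Tsc22d3 at r = -0.93 (permutation p = 1e-05, the smallest the permutations can give, adjusted p = 0.0005 over 50 relations of the members with 5 indices) and rho = -0.95 (adjusted p = 0.0025). It was r = -0.95 among offspring of UCP1-KO dams (exact p = 0.00417) and r = -0.92 among offspring of WT dams (exact p = 0.00139). With arrays 3 and 6 left out it was -0.92, and it held between -0.96 and -0.88 when single arrays were left out. With the 7 immediate early genes brighter than the negative controls alone it was -0.94. For Sgk1, r was -0.77 (adjusted p = 0.0917), rho -0.87 (adjusted p = 0.012) and r without arrays 3 and 10 -0.87. Dusp1, a member that is not in the list, had r = -0.07 with the mean (rho = -0.36, adjusted p = 0.886 and 0.693). Its r was -0.82 among offspring of UCP1-KO dams and 0.57 among offspring of WT dams (exact p = 0.0514 and 0.24), a difference that was not tested. The indices and this comparison were chosen after the relation of Tsc22d3 with Sgk1 had been seen.

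**Figure D5:**
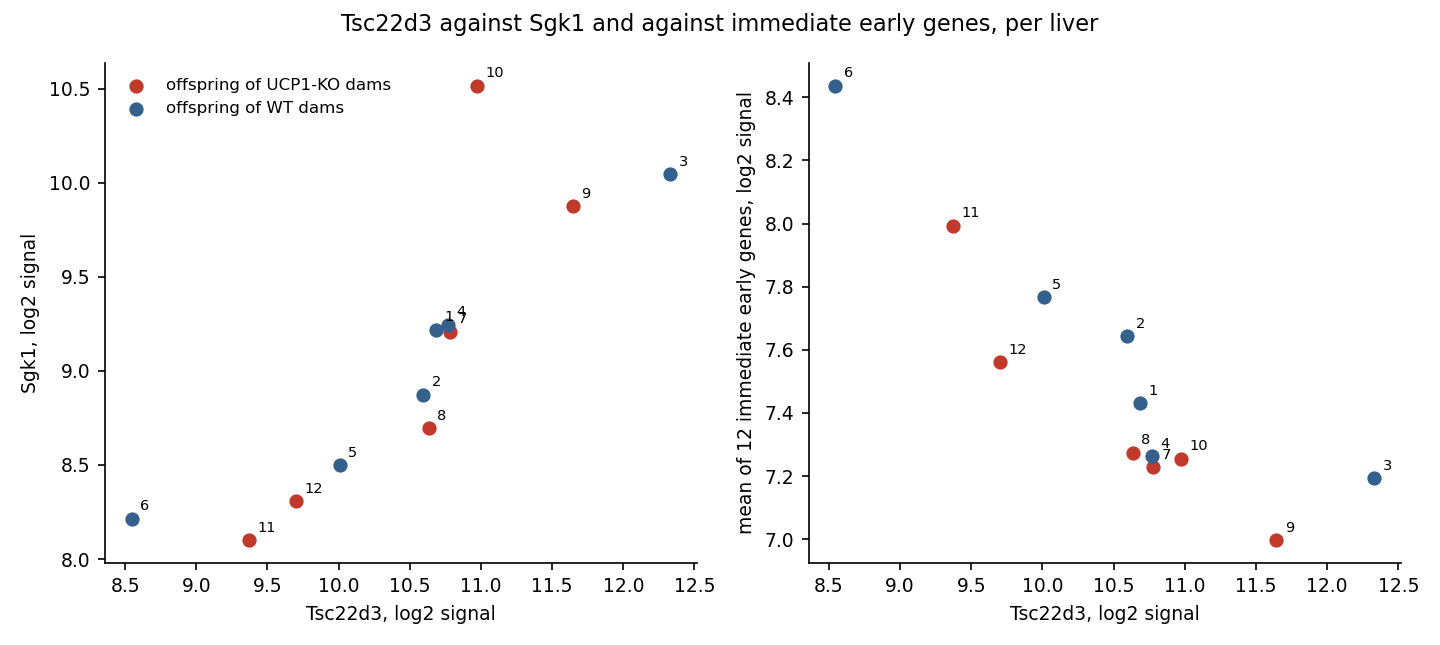
Each point is 1 liver, labelled with its array number, red for offspring of UCP1-KO dams and blue for offspring of WT dams. The log2 signal of Tsc22d3 is plotted against that of Sgk1 at the left and against the mean of 12 immediate early genes at the right, and livers of both groups follow one rising and one falling course, with WT-dam arrays 6 and 3 at the ends of the Tsc22d3 axis.

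No single immediate early gene passed. Of the 12, 10 had a negative r with Tsc22d3. Strongest were Jun with -0.75, Egr1 with -0.71, Ier2 with -0.67, Btg2 with -0.66, Junb with -0.62 and Myc with -0.60. The adjusted permutation p of these r was 0.247 to 0.349 over 108 relations of 3 members with 36 genes. Their rho ran from -0.80 for Egr1 to -0.39 for Btg2 (adjusted p = 0.176 to 0.572). These genes were chosen after their values were seen. Between the groups 0 of the 12 passed, and 2 had lower and 0 higher signals at an unadjusted p under 0.05, beside 6% lower and 7.08% higher over all probe sets. Zfp36, which destabilises inflammatory mRNAs, had 12.12 ± 0.69 in offspring of UCP1-KO dams and 13.08 ± 0.69 in offspring of WT dams (SD, n = 6 each, log2 difference -0.97, limma adjusted p = 0.2). Myc had a log2 difference of -1.59 (adjusted p = 0.356). The log2 difference was 0.23 for Atf3 and 0.11 for Ier3, both from probe sets dimmer than the negative controls. The mean of all 12 was 7.38 ± 0.35 in offspring of UCP1-KO dams and 7.62 ± 0.45 in offspring of WT dams (SD, n = 6 each, exact permutation p = 0.338).

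Among 24 other measured response genes of the hormone, 14 lay above 0 and 10 below, with a median log2 difference of 0.12 against 0.03 over all probe sets, and 0 passed. At an unadjusted p under 0.05 there was 1 higher and 1 lower, beside 7.08% and 6% over all probe sets. Pck1, which commits oxaloacetate to glucose production, had 17.07 ± 0.34 in offspring of UCP1-KO dams and 16.49 ± 0.60 in offspring of WT dams (SD, n = 6 each, log2 difference 0.58, limma adjusted p = 0.292). Cdkn1a, a cell cycle inhibitor, had -0.80 (adjusted p = 0.378) and, at 5.87 in offspring of UCP1-KO dams and 6.68 in offspring of WT dams, lay near the negative controls. G6pc, which releases free glucose, had -0.46 and the transcription factor gene Cebpd 0.29. Between livers, G6pc had r = 0.71 with Tsc22d3 and Ppargc1a, a coactivator of glucose production, r = -0.65 with Fkbp5, and neither passed (adjusted p = 0.247 each, rho = 0.79 and -0.76, adjusted p = 0.176 each). Without the 2 farthest arrays these r were 0.63 and -0.75.

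No gene of the machinery around the receptor passed. Of 13 measured partners and steroid-handling genes, 8 lay above 0 and 5 below (median log2 difference 0.05), 0 passed and 0 had an unadjusted p under 0.05. Ptges3, the p23 cochaperone that stabilises the receptor in its hormone-binding state, had a log2 difference of 0.30, with 95% limits of -0.01 and 0.61 (limma adjusted p = 0.4). Serpina6, which encodes the corticosteroid-binding globulin secreted by the liver, had 0.35 (95% interval -0.03 to 0.73, adjusted p = 0.414). Fkbp4, the cochaperone that favours transport of the receptor and opposes Fkbp5, had 0.24, and the coactivator gene Ncoa2 0.18.

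Clock genes were examined because hormone release is rhythmic. Of 15 measured, 8 lay above 0 and 7 below (median log2 difference 0.02), and 0 passed. Npas2, an activator of the clock loop, had 6.19 ± 1.08 in offspring of UCP1-KO dams and 7.79 ± 0.65 in offspring of WT dams (SD, n = 6 each, log2 difference -1.60, limma adjusted p = 0.118), so that it lay near the negative controls in the UCP1-KO-dam group. Nr1d2 had 0.36, Per2 -0.42 and Arntl -0.43. An index of clock phase, the mean of Arntl, Npas2 and Clock minus the mean of 6 genes of the opposite phase, ran between -1.58 and 1.82 in offspring of UCP1-KO dams and between -0.95 and 2.25 in offspring of WT dams (exact permutation p = 0.227). No member correlated with it past the threshold over the 50 relations (Sgk1 r = 0.59, rho = 0.60, Nr3c1 r = -0.60, rho = -0.48, adjusted p = 0.489 for each r), and without the 2 farthest arrays these r were 0.38 and -0.43. The index includes Npas2, with its difference of -1.60, and had means of 0.03 in offspring of UCP1-KO dams and 0.98 in offspring of WT dams. As a covariate it may therefore also take up part of the dam genotype difference. Among its genes of opposite phase, Ciart and Tef averaged 5.53 and 5.64, dimmer than the negative controls. With the index as a covariate the median difference of the members was 0.28, and 0 members passed.

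The hepatocyte genes Alb, Apoa1, Ttr and Cps1 were bright on every array, as the liver label calls for (mean of these 4 genes 18.89 to 19.07 in offspring of UCP1-KO dams and 18.63 to 18.97 in offspring of WT dams). The mean of 6 Kupffer cell markers lay at 9.20 to 9.95 in offspring of UCP1-KO dams and at 9.08 to 10.58 in offspring of WT dams, and that of 6 sinusoidal endothelial markers at 10.80 to 11.08 in offspring of UCP1-KO dams and at 10.70 to 11.04 in offspring of WT dams. That endothelial mean joins markers of opposite sign. Stab2, a scavenger receptor gene, had 10.13 ± 0.44 in offspring of UCP1-KO dams and 10.88 ± 0.48 in offspring of WT dams (SD, n = 6 each, log2 difference -0.74, limma adjusted p = 0.175). Lyve1, a hyaluronan receptor gene, had 8.55 ± 0.75 in offspring of UCP1-KO dams and 7.60 ± 0.52 in offspring of WT dams (SD, n = 6 each, log2 difference 0.94, limma adjusted p = 0.191). Both were picked out after their values were seen. Markers of T or NK cells, B cells, neutrophils and adipocytes were 0 of 5, 0 of 3, 0 of 3 and 0 of 3 above the negative controls. Neither the Kupffer nor the endothelial mean correlated with any member past the threshold, and their part in the spread of the members was not tested further. In whole liver, fewer cells of a type and less RNA per cell cannot be told apart.

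For each member the genes of most similar course over the 12 livers were sought among 9886 named probe sets brighter than the negative controls. Each r is the highest of that search and is given without a test. Closest to Tsc22d3 were Dnajb9 (r = 0.93), a chaperone gene of the endoplasmic reticulum, Sepsecs (0.92), of selenocysteine synthesis, and Ppp1r3c (0.89), which directs a phosphatase to glycogen. Closest to Fkbp5 were Cbarp (0.89), Pom121 (0.89), of the nuclear pore, and Cttn (0.88), which encodes the actin-binding protein cortactin. Nr3c1 was closest to Cnppd1 (0.94), Hsd11b1 to Rassf3 (0.92), Zbtb16 to Sbf1 (0.89) and Sgk1 to Nelfb (0.91). Dusp1 was closest to Nup205 (0.89), Tat to Smu1 (0.91), Tdo2 to Gm4846 (0.96) and Errfi1 to Gcdh (0.91). No member was among the 3 closest of another.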

How the data were processed

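Per the submitters' processing notes, the authors deposited log2 signals from RMA, and Transcriptome Analysis Console is the software named. Versions, the RMA variant and the genome build are not given in the sources used here. RMA makes the arrays alike in distribution and compresses differences of dim probe sets. The number of arrays limits the precision. Columns were matched to mice by sample identifier and to groups by dam genotype. Left out were 6640 control rows, and 22206 probe sets were tested without a filter; 19572 have 1 symbol in the platform annotation, which can be old. For a symbol with several probe sets the brightest was taken.

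limma 3.58.1 in R 4.3.3 (lmFit, eBayes, two-sided) was fitted on 12 arrays with dam genotype as the only term, and adjusted p under 0.05 (Benjamini-Hochberg over all probe sets) was called. The fit was tested on simulated data. Correlations used group-centred values and 100000 permutations within groups. Single values were compared by exact permutation. The text names all members, up to 4 genes of smallest p per list and, for each member, up to 3 most similar genes. List genes named beyond these for their correlations were chosen after their values were seen. Members, lists and tests were chosen with earlier results of these data known. Sequences are from RefSeq, GRCm38.p6. Alternatives covered normalization, dim probe sets, variance model, weights, covariates and left-out arrays.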

Additional observations from a re-analysis of the deposited data

Results flagged for a closer look

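In the offspring of WT dams Fkbp5 read 9.19 on array 5, while the nearest of the other 5 livers read 9.79, and this gap took 0.739 of the range of the group. Tat read 17.09 on WT-dam array 6, with the next liver at 17.73, a gap of 0.648 of the range. Both exceed Dixon's 95% critical value for 6 samples. Among the 20 groups of values examined, about 1 in 20 would exceed it by chance. The same WT-dam array 6 had the lowest Tsc22d3 signal (8.55) and the highest mean of immediate early genes (8.44) of the 12 livers.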

How the results depend on the processing

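No member passed under any of 22 alternatives, and 0 genes of the 5 pathway lists did. Nr3c1, Fkbp5, Tat and Tdo2 stayed above 0 and Dusp1 below 0 in all 22, Fkbp5 at 0.32 to 0.52 (limma adjusted p = 0.147 to 0.729). With single arrays left out Nr3c1 was 0.11 to 0.24 and Dusp1 -0.68 to -0.19, and Dusp1 was -0.15 without WT-dam arrays 3 to 6. The other members changed sign. With single arrays left out the log2 difference ran from -0.055 to 0.079 for Hsd11b1, -0.36 to 0.40 for Tsc22d3, -0.46 to 0.26 for Zbtb16, -0.18 to 0.31 for Sgk1 and -0.027 to 0.13 for Errfi1. Quantile normalization gave 0.0011 for Zbtb16, and centring on array medians -0.013 for Hsd11b1 and -0.00060 for Tsc22d3. The negative control covariate gave -0.061 for Hsd11b1, 0.35 for Zbtb16 and -0.0040 for Errfi1. Without WT-dam arrays 3 to 6, which had the brightest negative controls, values were -0.067 for Hsd11b1, -0.12 for Tsc22d3 and 0.29 for Zbtb16. The clock covariate gave 0.31 for Zbtb16, -0.059 for Errfi1 and 0.28 for the members' median, which was 0.02 to 0.20 with single arrays left out.

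The 8 probe sets called became 32 without the dimmer 50%, 22 with a variance trend and robust estimation together, 2 with the negative control covariate and 0 without WT-dam arrays 3 to 6 (2 arrays remain in that group, by limma). With single arrays left out the count was 1 to 112: 112 without array 2, 54 without array 7, 5 without array 11, 4 without array 9, 3 without array 3, 2 without array 6 and 1 without array 8. The correlation of Tsc22d3 with Sgk1 was 0.84 without the farthest arrays 3 and 6 (adjusted p = 0.488), 0.83 within offspring of UCP1-KO dams (exact p = 0.05) and 0.80 to 0.94 with single arrays left out, an alternative chosen after seeing the data. Where these alternatives ended a call, the cause was not tested, and those that leave out arrays also have fewer of them. No paired analysis was possible because the groups share no replicate numbers.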
